A study of Mus musculus with 12 samples.

Results

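The oligos described here are 4 of the 35852 mouse oligos on a 2-colour Agilent array, whose translated sequences carry a joining (J) segment of the antibody light chain. The J pattern is phenylalanine, glycine, any residue, glycine and threonine, followed by lysine. It occurs in 5 oligos, of which the 4 described read as kappa and the other as lambda. The oligos M400010428, M400010429, M400010431 and M400010432 were chosen by their kappa J letters and with their measured log2 ratios in 564 Igi and C57BL/6 spleen already known. Their differences between the strains are therefore given as a description, without a test.

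Spleen RNA of female mice was hybridised on 12 arrays, 1 sample per array. The 10 samples of the 564 Igi strain, on a C57BL/6 background, comprised 3 taken at 4 months, 3 at 8 months and 4 at 12 months. The other 2 samples were C57BL/6 at 4 months. No C57BL/6 sample of 8 or 12 months was analysed here, so at those ages strain and age cannot be told apart. 564 Igi mice are knock-ins: a heavy and a light chain of an autoantibody, both already rearranged, were inserted at the mouse antibody loci. The genotype label of the samples is 564+/-, but per the treatment text the animals studied were homozygous, 564+/+, and which applies here is not settled. Some of the homozygous colony drank water with ampicillin, metronidazole, neomycin and vancomycin, and the labels do not say whether these samples came from it. Whether samples are separate animals is not stated. The p-values therefore cover only the spread among the samples, which may be technical. On every array Cy3 carried the spleen RNA and Cy5 a universal reference RNA, with no dye swap. An effect of the dye on an oligo is therefore shared by all arrays.

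A light-chain gene is assembled in each developing B cell by joining 1 of many variable (V) segments to 1 of a few J segments, and splicing then links the joined exon to the constant region. The J segment encodes the last stretch of the variable domain. The conserved glycine-rich motif lies in its framework part, so different V segments can be followed by the same J letters. A cell that already holds a productive light chain mostly stops rearranging, and in a mouse with an inserted light chain most B cells can use that chain.

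The 4 sequences are shown because they separate into pairs that share their J letters. Capitals mark the 3′ stretch that the members of a pair have in common, and lower case marks the stretch that differs.
M400010428: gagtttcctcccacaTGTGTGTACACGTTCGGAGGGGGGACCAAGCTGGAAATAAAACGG
M400010431: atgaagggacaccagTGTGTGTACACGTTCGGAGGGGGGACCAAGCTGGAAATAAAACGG
M400010429: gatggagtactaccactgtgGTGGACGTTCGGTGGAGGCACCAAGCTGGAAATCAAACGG
M400010432: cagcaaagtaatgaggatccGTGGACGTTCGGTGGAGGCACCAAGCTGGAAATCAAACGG

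Each oligo has 60 bases and reads open, without a stop codon, in its first frame, and in each the pattern begins at base 28. M400010428 and M400010431 share their last 45 bases and match at 48 of 60 positions. Their common letters read as the second kappa J segment, and they are called the J2 pair below. M400010429 and M400010432 share their last 40 bases and match at 42 of 60 positions. Their common letters read as the first kappa J segment, and they are called the J1 pair. These names rest on textbook knowledge of the segments, since the files give no gene, and no genome position, for any oligo.

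Between the pairs, 38 to 41 of the 60 bases are identical. Over the last 38 bases 32 are identical, but only the final 6 form an unbroken common run at the 3′ end. The members of a pair therefore share most of their target and are not independent measurements, and binding of RNA of one J segment to oligos of the other pair was not tested.

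The 5′ stretches carry what precedes the J segment. In M400010429 the letters CACTGTG stand at bases 14 to 20, directly before the shared stretch. They are the reverse complement of CACAGTG, the heptamer of the recombination signal that flanks unrearranged antibody segments. None of the other 3 members holds either heptamer. Of all oligos on the array, 661 (1.84%) hold CACTGTG or CACAGTG on the printed strand, so the letters alone are not rare and the match is a description. The GC content was 55.0% in M400010429 and 53.3% in each of the other 3, above the median of 48.3% over all oligos of 60 bases.

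All 4 members passed the filter, which kept 26290 oligos that were well above background in Cy3 on every array of at least 1 group. Both J2 oligos were well above background on all 12 arrays, in Cy3 and in Cy5. The J1 oligos passed only through the C57BL/6 arrays: in Cy3, M400010429 was well above background on 1 of the 10 564 Igi arrays and M400010432 on 3 of them. No member spot was saturated or of uneven background. Across the arrays 69.5% to 91.2% of oligos were well above background in Cy3, and the median Cy3 signal of an array lay between 102 and 149. The number of arrays limits the precision. The labelled tissue could not be checked against cell markers, because the files pair no oligo with a gene.

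In the Cy3 channel, which holds the spleen RNA, all 4 J oligos were bright in C57BL/6 and dim in 564 Igi at every age. M400010428 had mean Cy3 signals of 4307 and 4393 on the C57BL/6 arrays. Its 564 Igi signals were 275, 218 and 214 at 4 months, 215, 196 and 178 at 8 months, and 255, 228, 191 and 177 at 12 months. The lowest C57BL/6 array exceeded the highest 564 Igi array 15.7-fold. In bulk spleen, fewer cells that carry such RNA and less of it per cell cannot be told apart.

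M400010431, its pair mate, had Cy3 signals of 4623 and 4185 in C57BL/6. In 564 Igi it had 251, 192 and 225 at 4 months, 166, 201 and 156 at 8 months, and 200, 231, 167 and 157 at 12 months. Again the groups were far apart, with the lowest C57BL/6 array 16.7-fold above the highest 564 Igi array. Both J2 oligos kept a Cy3 signal flagged as well above background on every 564 Igi array. There the Cy5 signal of M400010428, after background subtraction, was between 2850% (12 months, replicate 1) and 12281% (12 months, replicate 4) of its Cy3 signal. Whether so bright a Cy5 signal adds to the Cy3 reading was not tested.

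M400010429 had Cy3 signals of 4619 and 6774 in C57BL/6. In 564 Igi the signals were 84.0, 59.5 and 63.5 at 4 months, 57.9, 58.3 and 54.9 at 8 months, and 62.3, 63.9, 53.5 and 55.6 at 12 months. Only the first 4-month sample was flagged as well above background, so the other 9 values lie at background and rank no sample.

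M400010432 had Cy3 signals of 6383 and 9077 in C57BL/6. In 564 Igi it had 94.3, 64.5 and 67.8 at 4 months, 69.5, 59.9 and 61.2 at 8 months, and 69.2, 61.5, 56.0 and 61.2 at 12 months. Replicates 1 and 3 at 4 months and replicate 1 at 8 months were well above background, and the other 7 were not. The first 4-month array, where both J1 oligos had their highest 564 Igi signal, was also the array with the most oligos above background (91.2%).

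Single-channel levels were taken after loess normalization within arrays and quantile normalization of the average intensity between arrays. On that scale the Cy3 level of M400010428 was 20.6-fold lower in 564 Igi than in C57BL/6 at 4 months. It was 23.8-fold lower at 8 months and 19.6-fold lower at 12 months. For M400010431 the same folds were 22.4, 27.0 and 22.4. Where no array of an age was well above background, a J1 oligo has no measured level, and a floor was used. The value taken, on the normalized scale, was the oligo's own or, if higher, the lowest among oligos well above background on that array. On the scanner's scale that lowest signal, 60.6 to 69.8 on the 12-month arrays, lay above all 4 signals of M400010432 there. By this rule M400010429 was 91.6-fold lower at 8 months and 90.5-fold lower at 12 months, and M400010432 was 119-fold lower at 12 months. At 12 months the floor did not come into play, and the folds equal the ratios to values at background. A bound from the detection limit was not computed, so these folds are not given as minimums. Where some arrays were above background, the ratio of means was 84.3-fold for M400010429 at 4 months (1 of 3 arrays above background). It was 112-fold for M400010432 at 4 months (2 of 3) and 111-fold at 8 months (1 of 3), and these values include arrays at background. These folds use a single channel and remain open to spot and array effects left after normalization. An effect of the dye on an oligo stays in the ratio of sample over reference. Where that effect is constant across arrays on the log scale, it drops out of a fold between the strains.

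The reference channel separated the pairs. For M400010428 the Cy5 signals were 8021 and 15384 on the C57BL/6 arrays. On the 564 Igi arrays they were 7419, 7361 and 7876 at 4 months, 7651, 10212 and 13901 at 8 months, and 6456, 10837, 15593 and 17746 at 12 months. The C57BL/6 values lay within the 564 Igi range, so the reference RNA gave a bright J2 signal on all arrays.

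For M400010431 the Cy5 signals were 6059 and 8553 with C57BL/6. With 564 Igi they were 3481, 2474 and 5569 at 4 months, 3166, 4990 and 7826 at 8 months, and 4223, 5361, 7750 and 8081 at 12 months. One C57BL/6 array was the highest of the 12, and the other lay inside the 564 Igi range.

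The J1 oligos had little Cy5 signal. M400010429 had Cy5 signals of 163 and 218 on the C57BL/6 arrays and between 47.4 and 71.1 on the 564 Igi arrays (median 51.5), where none was well above background. M400010432 had 232 and 333 on the C57BL/6 arrays and between 49.8 and 88.6 on the 564 Igi arrays (median 56.0), where 1 of 10 was well above background. The labels name the same reference RNA for all arrays, yet the lower C57BL/6 Cy5 value was 2.29-fold and 2.62-fold above the highest 564 Igi value for M400010429 and M400010432. This higher Cy5 signal moved with the higher Cy3 signal of the same spots. After background subtraction the Cy5 signal of M400010429 was 2.78% and 2.53% of its Cy3 signal on the C57BL/6 arrays, and that of M400010432 was 3.03% and 3.23%. Among the 2235 and 2407 oligos with a Cy3 signal above 4000 on these arrays, 16 to 27 had a lower share than these, and the lowest shares were 0.631% and 0.517%. The cause of the Cy5 difference was not tested.

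On the log2 ratio of sample over reference the pairs sat at different places, and in both pairs 564 Igi lay below C57BL/6. M400010428 had ratios of -0.55 and -0.99 in C57BL/6. In 564 Igi they were -5.02, -5.33 and -4.92 at 4 months, -5.31, -5.33 and -5.70 at 8 months, and -4.73, -5.13, -5.40 and -5.48 at 12 months. It exceeded 12.6% and 7.52% of the oligos of the array in C57BL/6, and at most 0.0195% on any 564 Igi array.

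M400010431 had ratios of -0.06 and -0.24 in C57BL/6. In 564 Igi they were -4.09, -3.98 and -4.39 at 4 months, -4.43, -4.32 and -5.02 at 8 months, and -4.49, -4.14, -4.62 and -4.57 at 12 months. It exceeded 41.7% and 24.9% of oligos in C57BL/6 and at most 0.131% in 564 Igi.

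The J1 pair was far above the reference in C57BL/6 and near 0 in 564 Igi. M400010429 had ratios of 4.83 and 5.58 in C57BL/6, against 0.12, 0.18 and 0.28 at 4 months, -0.01, -0.07 and 0.09 at 8 months, and 0.06, -0.02, 0.16 and 0.17 at 12 months. M400010432 had ratios of 4.89 and 5.41 in C57BL/6, against -0.10, -0.10 and 0.06 at 4 months, 0.16, 0.01 and 0.21 at 8 months, and 0.17, 0.21, -0.02 and 0.09 at 12 months. On both C57BL/6 arrays each J1 oligo exceeded about 99.9% of oligos. A ratio near 0 in 564 Igi does not mean equal amounts in spleen and reference, because both channels were at or near background there.

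In the limma fit over all arrays, the 4-month log2 difference, 564 Igi minus C57BL/6, was -4.32 (SE 0.23) for M400010428 and -4.00 (SE 0.21) for M400010431. It was -5.01 (SE 0.17) for M400010429 and -5.20 (SE 0.14) for M400010432. At 8 months the differences were -4.67 and -4.44 for the J2 oligos M400010428 and M400010431, and -5.20 and -5.02 for the J1 oligos M400010429 and M400010432. At 12 months they were -4.42, -4.31, -5.11 and -5.04 in the same order. The J1 SEs come from a spread shared by all groups, and the 564 Igi arrays were at or near background. In C57BL/6 (n = 2) the SD of the ratio was 0.53 for M400010429 and 0.37 for M400010432. At 4 months in 564 Igi (n = 3) it was 0.08 and 0.09. The J1 SEs therefore understate the spread in C57BL/6 and do not make these differences more precise than those of J2. The fitted J1 values are limited by the background and are no bound. They also moved with the processing: by the scanner's processed log ratio the difference of M400010432 was -3.81 at 8 months and -3.94 at 12 months, and in the Cy3 channel alone it was -6.65 and -6.75.

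All 4 members lay below 0 in each comparison with C57BL/6, and their arrays did not overlap between the strains. The arrays of 564 Igi all lay lower for 16.6% of oligos at 4 months, 15.2% at 8 months and 10.1% at 12 months. The rule used these contrasts, so nothing is read from the members' count. The median over the members was -4.67 at 4 months, -4.85 at 8 months and -4.73 at 12 months, beside 0.01, -0.00 and 0.00 over all oligos tested. The 1st percentile of all oligos was -0.78, -0.79 and -0.80. The 3 comparisons share the same 2 C57BL/6 arrays.

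The arrays lay on 3 slides, and C57BL/6 was hybridised on slides 2 and 3, which also held 564 Igi arrays. Slide 2 held a single array of each group, and on it the 4-month differences were -4.38 for M400010428, -4.33 for M400010431, -4.56 for M400010429 and -4.83 for M400010432. At 8 months the same differences were -4.78, -4.26, -4.90 and -4.88, and at 12 months -4.58, -4.09, -4.85 and -4.68. Within slide 3 the 8-month differences were -4.71, -4.78, -5.49 and -5.19 in that order, and the 12-month differences were -4.45, -4.35, -5.41 and -5.37. Every within-slide difference of a member thus lay between -5.49 and -4.09.

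The ages of 564 Igi could be compared without C57BL/6, and the J2 pair was measured on all of these arrays. The J1 pair, which passed the filter only through C57BL/6, was at or near background at each age, so its age differences are not tested. The 12 against 8 month comparison uses arrays outside the 4-month contrast that was in view when the members were chosen, although the 8- and 12-month values against C57BL/6 were known too. From 8 to 12 months the log2 difference was 0.26 (SE 0.19) for M400010428 and 0.13 (SE 0.17) for M400010431, with a limma adjusted p of 0.99 for both. Neither J2 oligo was called, and the background was 0% of 26279 oligos at an adjusted p under 0.05 and 4.22% at an unadjusted p under 0.05.

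From 4 to 8 months the J2 oligos differed by -0.35 (SE 0.20) for M400010428 and -0.44 (SE 0.19) for M400010431. The limma adjusted p was 1.00 for both, neither was called, and 0% of oligos were. At an unadjusted p under 0.05, which 3.14% of oligos reached, M400010431 had an unadjusted limma p of 0.038. Its difference was -0.40 within slide 1 and 0.07 within slide 2, so the sign was not the same on both. For M400010428 the within-slide differences were -0.13 and -0.40.

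From 4 to 12 months the differences were -0.09 (SE 0.19) for M400010428 and -0.30 (SE 0.17) for M400010431, with limma adjusted p-values of 0.93 and 0.70. Neither was called, against 1 oligo of 26279 (0.00381%), while 7.64% of oligos had an unadjusted p under 0.05. These values do not show that the J2 signal was equal across ages. For the J1 pair the ratio differences between ages, at background, lay between -0.18 and 0.17, and a change below background could not have been measured. By the scanner's processed log ratio M400010432 differed by 1.20 from 4 to 8 months and by 1.07 from 4 to 12 months.

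Within 564 Igi the J2 ratios differed by slide. M400010428 had mean ratios of -5.10 on slide 1 (4 arrays), -5.13 on slide 2 (3 arrays) and -5.53 on slide 3 (3 arrays). Its Cy5 signals ran from 6456 to 7651 on slide 1, from 7876 to 10837 on slide 2 and from 13901 to 17746 on slide 3, and its Cy3 signals were lowest on slide 3, from 177 to 191. M400010431 had mean ratios of -4.25, -4.28 and -4.74 on the same slides. Slide 3 held no 4-month 564 Igi array and 2 of the 4 at 12 months, and its part in the age differences was not tested beyond the fit with slide as a block. With that block the 4 to 12 month difference of M400010428 was 0.14 and so had the opposite sign, with a limma adjusted p of 0.90.

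The J pattern without the final lysine occurs in 17 oligos read forward, of which 13 are not members, and in 10 read on the other strand. With the lysine it occurs in 5 forward and in 0 on the other strand. The only non-member with the lysine, just outside the kappa letters, reads as a lambda light-chain J segment. It is shown for comparison, with the 18 bases of the pattern in capitals, of which 14 match the nearest member.
M400008511: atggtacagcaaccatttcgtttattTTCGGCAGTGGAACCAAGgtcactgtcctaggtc

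M400008511 was bright in both strains. Its Cy3 signals were 5566 and 7369 in C57BL/6 and 7532, 5731 and 13941 in 564 Igi at 4 months. At 8 months they were 5572, 7746 and 5488, and at 12 months 18484, 9849, 8346 and 6797. The strains overlapped in this channel. Its log2 ratio was 4.09 ± 0.44 (SD, n = 2) in C57BL/6, and 4.17 ± 0.43 (n = 3), 4.09 ± 0.14 (n = 3) and 4.56 ± 0.08 (n = 4) in 564 Igi at 4, 8 and 12 months. The differences from C57BL/6 were 0.07 (SE 0.22), -0.00 (SE 0.22) and 0.47 (SE 0.21), the sign at 4 and 8 months depended on the processing, and no test is given as the oligo was singled out beside the members.

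The other 12 non-members with the shorter pattern were M200000567, M200006658, M200009507, M300018502, M400005127, M400009407, M400009410, M400009623, M400011640, M400012817, M400018722 and M400018837. M400009407 and M400009410 read as T cell receptor J segments, but only by textbook knowledge, since no gene is paired with them and their letters are not shown. Of the 12, 7 passed the filter and were tested. Their log2 differences from C57BL/6 ranged from -0.33 to 0.45 at 4 months, from -0.48 to 0.56 at 8 months and from -0.74 to 0.54 at 12 months, all closer to 0 than any member.

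The kappa constant region is the portion that every kappa chain shares whichever J segment it uses. A search of the forward translations for short runs of its residues found 1 oligo, M400007350. Oligos of this region outside those runs would have been missed. M400007350 was chosen for this comparison after the values of the members were known.
M400007350: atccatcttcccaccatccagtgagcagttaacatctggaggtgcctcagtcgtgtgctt

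M400007350 had Cy3 signals of 49391 and 47260 in C57BL/6. In 564 Igi it had 109275, 101328 and 121682 at 4 months, 151610, 61371 and 135639 at 8 months, and 145018, 122243, 132968 and 113720 at 12 months. In this unnormalized signal every 564 Igi array exceeded both C57BL/6 arrays, the opposite order to that of the J oligos. The share of all oligos with such an order is not given, so nothing is read from the order alone. Its log2 ratio differed from C57BL/6 by 0.99 (SE 0.41) at 4 months, 1.14 (SE 0.41) at 8 months and 1.81 (SE 0.39) at 12 months. No test is given, as the oligo was singled out after its values were seen. On the ratio scale replicate 2 at 8 months had -0.35, beside -0.36 and -0.61 in C57BL/6, and the other 9 lay between 0.23 and 1.78.

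The oligos most like each member across the 12 arrays followed the same separation of the strains, which sets these correlations. By Pearson's r of the log2 ratio, M400005853 (r = 0.990), M400004199 (0.989) and M400009428 (0.989) were most like M400010428. M400009428 (0.993), M400010428 (0.987) and M400010640 (0.987) were most like M400010431. M400007884 (0.997), M400009427 (0.997) and M400004552 (0.997) were most like M400010429, and M400009427 (0.998), M400010429 (0.996) and M400004199 (0.996) were most like M400010432. Of the 7 distinct non-members among them, 6 carry short patterns of light-chain V framework residues when translated, which 34 of all 35852 oligos (0.0948%) do. The patterns were put together after these letters had been read, so the count is a description.

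Across the 10 564 Igi arrays alone, a different set came first. The 12 non-members with the highest r to a member reached 0.91 to 0.98, and 0 of the 12 carry a V framework pattern. They are the highest of many oligos compared over 10 arrays, and no likeness is read from them.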

How the data were processed

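Per the file headers, Agilent Feature Extraction 11.5.1.1 read the 12 arrays, removed local background and normalized the dyes (lowess, smooth factor 0.25). The deposited intensity columns hold the mean brightness and median local background of each spot, unnormalized, and a processed signal. The deposited log ratio, and the authors' series table that rounds it (largest difference 0.005), are log10 of reference over sample. Other deposited columns are flags for background, saturation and uneven spots. Array design, strain and dye come from the labels. No gene is paired with an oligo.

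Mean signals were corrected with limma 3.58.1 in R 4.3.3 by normexp (offset 50), with spots of uneven background given their array's median background for that fit. Each array was then loess-normalized, control spots having weight 0. Spots of uneven background, and spots flagged as uneven themselves, were left out of the ratios (17 to 80 per array). The alternative with uneven spots kept concerns those of uneven background only, without the replaced background. The values analysed are log2 ratios, sample over reference. For the Cy3 folds only, the average log intensity of the 2 channels was also quantile-normalized between arrays before the channels were separated. All 12 arrays entered 1 fit (lmFit, eBayes) with a coefficient per group and 8 residual degrees of freedom. Of 26290 oligos kept, 26279 had values in every group and were tested, and p-values were adjusted over them by Benjamini-Hochberg (threshold 0.05). The count of 35852 takes identifiers of the letter M and digits. The fit was tested on data simulated for 12 against 8 months, with a log2 change of 2. It recovered 96% of 200 changed oligos in a set of 25999, with 13 false calls among the unchanged ones. The simulated noise was independent between arrays, without a slide effect. The share recovered therefore does not tell whether age differences as small as those of the J2 oligos would be found. Sequences were translated with Biopython 1.88.

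The members, the lists and the repair of uneven spots were chosen with earlier results of these data known. The oligos named were the members, all other oligos with the J pattern, and for each member the 3 with the highest r. M400007350 was added after its values were seen. One oligo outside the J pattern shares 15 or more bases with a member and is not described. Lists of B cell and plasma cell genes and of cell type markers could not be applied, because they need a protein or gene table that was not used here. Alternatives were other background corrections, offsets, normalizations and filters, the sample channel alone, the series table, blocks for slide and replicate, only the groups compared, and leaving out each array.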

Additional observations from a re-analysis of the deposited data

How the results depend on the processing

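Against C57BL/6 all 4 members stayed below 0 under every alternative run (22 or 23 each), and between ages neither J2 oligo passed the threshold under any (lowest limma adjusted p 0.20). The medians over the members at 4, 8 and 12 months against C57BL/6 were -4.83, -5.01 and -4.88 with an offset of 16, -4.24, -4.48 and -4.45 with median centring, -5.38, -5.55 and -5.42 with the sample channel alone, and -4.16, -4.56 and -4.36 with a filter on both channels, which leaves the 2 J2 oligos. At 4 and 8 months they were -4.38 and -4.66 with uneven spots kept, -4.85 and -5.19 with the scanner's processed log ratio, and -4.85 and -5.19 with the series table. Between ages the median in the fit reported was -0.27 from 4 to 8 months, -0.10 from 4 to 12 months and 0.11 from 8 to 12 months. Unless the J1 pair is dropped, these age medians include its values at background, so nothing about age is read from them. From 4 to 8 months the median was -0.39 with the processed log ratio, the series table, the filter on both channels and only the groups compared, and -0.13 with the sample channel alone. From 4 to 12 months it was -0.39 with uneven spots kept, 0.032 with the processed log ratio and the series table, -0.26 with median centring, 0.0060 with slide as a block, and -0.20 with the filter on both channels and only the groups compared. From 8 to 12 months it was -0.061 with uneven spots kept and 0.30 with the processed log ratio and the series table. The filter on both channels and the fit of only the ages compared drop the J1 pair. For the other shifts the cause was not tested. A median can hide members that move apart. Over the alternatives, the 4, 8 and 12 month differences ran from -4.94 to -3.63, -5.29 to -4.30 and -4.96 to -4.20 for M400010428, and from -4.76 to -3.32, -5.22 to -4.08 and -4.95 to -4.12 for M400010431. They ran from -6.30 to -4.64, -6.43 to -4.82 and -6.38 to -4.64 for M400010429, and from -6.67 to -4.85, -6.65 to -3.81 and -6.75 to -3.94 for M400010432.

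The number of oligos called from 4 to 12 months, 1 in the fit reported, was 2 with uneven spots kept, 3 with an offset of 16 or median centring, 6 with only the groups compared, and 0 with the processed log ratio, the series table or the slide block. From 8 to 12 months it was 1, not 0, with uneven spots kept, the sample channel alone, the filter on both channels or only the groups compared. Leaving out each array in turn gave 0 to 8 called from 4 to 12 months (8 without replicate 1 at 8 months) and 0 to 2 from 8 to 12 months (2 without replicate 3 at 4 months), and medians against C57BL/6 of -4.75 to -4.59, -4.89 to -4.79 and -4.81 to -4.67.

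With the replicate block the medians against C57BL/6 were -4.66, -4.82 and -4.64, and 0 oligos were called from 4 to 12 months. The numbers share no stated source, so the block is no paired analysis. Of 15 same-numbered pairs of arrays 5 had a correlation of deviations over 0.1. The median correlation was -0.036 for same-numbered pairs and 0.0025 for other pairs. It was 0.13 for pairs on the same slide and -0.087 for pairs on different slides. These correlations cannot settle whether same-numbered samples share a source, because slide also enters them. The difference of M400007350 from C57BL/6 stayed above 0 under all 23 alternatives, between 0.82 and 1.27 at 4 months, 0.79 and 1.63 at 8 months, and 1.44 and 1.94 at 12 months.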
